A study of Mus musculus with 45 samples.

Results

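The ionotropic and metabotropic glutamate receptors and the proteins that anchor them at the postsynaptic membrane were followed in the nucleus accumbens (NAC) of mice after chronic intermittent ethanol (CIE). The set lists 36 genes, namely 4 AMPA, 6 NMDA, 6 kainate and delta and 6 metabotropic receptor genes, 3 transmembrane AMPA receptor regulatory proteins (TARPs), 9 scaffold genes and 2 subunits of calcium/calmodulin-dependent kinase II (CaMKII). A gene was taken as measured where a probeset of the array carries its symbol alone, which held for 34 of the 36 genes with 68 of the 45037 probesets. Grin1 and Shank2 were not analysed here. Each gene is given at its probeset with the highest mean, on the log2 scale, so that a change of 1 is a 2-fold change. Levels of different genes are not compared, since probes differ in their brightness.

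The arrays came from 22 CIE and 23 Ctrl mice, 1 array for each mouse, all adult male C57BL/6J animals. CIE mice were injected with ethanol (1.6 g/kg) and pyrazole (1 mmol/kg), which blocks alcohol dehydrogenase, and were kept in ethanol vapor (10 to 13 mg/l of air) for 16 h a day over 4 days. Ctrl mice were given saline with the same dose of pyrazole and stayed in chambers with air, so that every group carried the pyrazole treatment. After 4 such cycles, each followed by 7 days of abstinence except the last, tissue was collected at 0 h, 8 h, 72 h and 7 d. CIE groups held 6, 5, 5 and 6 arrays in this order of times and Ctrl groups held 6, 5, 6 and 6. The medians of the arrays lay between 6.94 and 6.96, and the number of arrays limits the precision. The samples are tissue pieces, so that fewer cells of a type and less RNA per cell cannot be told apart.

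Glutamate is the main excitatory input to the NAC, released there by fibres from cortex, hippocampus, amygdala and thalamus onto medium spiny neurons. AMPA receptors carry fast transmission and NMDA receptors admit calcium, which activates CaMKII. Metabotropic receptors act through G proteins, with mGluR5 in group I coupled to phospholipase C and mGluR2, mGluR3, mGluR4, mGluR7 and mGluR8 in groups II and III lowering cyclic AMP and transmitter release. Scaffolds such as PSD-95 (Dlg4), Shank and Homer proteins tie receptors to each other and to the cytoskeleton.

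Of the 34 genes, only Grm3 and Grin2c passed an adjusted p of 0.01 in any of the contrasts of treatment or time. Grm3 encodes mGluR3, a group II receptor found on neurons and astrocytes, and lies on chromosome 5 (GRCm38.p6 chr5:9485236-9725352). Grin2c encodes the GluN2C subunit of the NMDA receptor and lies on chromosome 11 (chr11:115249169-115267297). The windows around their annotated starts (RefSeq, GRCm38.p6, minus strand in both) are shown because these were the only members whose level passed the test. Each holds 250 bases before and 50 bases after the start, at chr5:9725303-9725602 for Grm3 and chr11:115267194-115267493 for Grin2c. The start used for Grm3 is the highest annotated position of its gene, where a gene on the minus strand begins. The start used for Grin2c lies inside its gene. Capitals mark GC boxes, the letters GGGCGG searched on both strands.
Grm3: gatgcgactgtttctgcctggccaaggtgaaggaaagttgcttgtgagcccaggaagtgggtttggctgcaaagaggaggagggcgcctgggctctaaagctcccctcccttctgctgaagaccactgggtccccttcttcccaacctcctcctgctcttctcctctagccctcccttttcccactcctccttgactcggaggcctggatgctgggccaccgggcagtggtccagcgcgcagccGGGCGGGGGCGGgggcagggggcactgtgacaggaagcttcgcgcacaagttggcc
Grin2c: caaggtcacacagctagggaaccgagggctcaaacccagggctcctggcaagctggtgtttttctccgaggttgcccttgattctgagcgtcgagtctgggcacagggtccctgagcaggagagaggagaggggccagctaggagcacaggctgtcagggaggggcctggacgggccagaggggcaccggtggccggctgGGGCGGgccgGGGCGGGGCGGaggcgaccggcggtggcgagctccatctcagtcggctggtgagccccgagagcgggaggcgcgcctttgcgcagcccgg
The Grm3 window holds 2 GC boxes and the Grin2c window holds 3, and 63.7% and 70% of their bases are G or C. Both boxes of the Grm3 window adjoin, and 2 of those of Grin2c share 1 base. A GC box was found in 35.7% of all 32851 windows, whose median content of G and C was 52.7%, and in 16 of the 34 windows of members that were searched (47.1%). Neither window holds a TATA box (TATAAA, in 13.6% of all windows), an E box (CACGTG, 7.15%), a cyclic AMP response element (TGACGTCA, 1.79%) or the letters AGAACA of the glucocorticoid response element (19%) on either strand. These letters describe the windows only. Windows were at hand for 23 of the 34 measured members.

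Grm3 was lower in CIE than in Ctrl mice directly after the last exposure. Its log2 values at 0 h had a lowest, median and highest of 11.81, 11.93 and 12.29 in CIE mice, against 12.22, 12.30 and 12.39 in Ctrl mice. Of the 6 CIE arrays, 5 lay below every Ctrl array, and CIE replicate 17 lay within the Ctrl range. The means were 11.98 ± 0.20 in CIE and 12.31 ± 0.06 in Ctrl mice (SD, n = 6 each), a change of -0.32 (SE 0.0682, 95% interval -0.46 to -0.18), or 0.800-fold (limma, adjusted p = 0.00327). It was the only member past the threshold at this time, 1 of 34, where 1.59% of all probesets passed. At 8 h the values of Grm3 in CIE mice were 12.26, 11.85, 12.26, 12.35 and 12.19, against 12.44, 12.34, 12.45, 12.38 and 12.33 in Ctrl mice. The change of -0.21 (SE 0.0747) at 8 h had an adjusted p of 0.380 in limma. At 72 h and 7 d the changes were -0.05 and -0.01, with 95% intervals of -0.19 to 0.10 and -0.14 to 0.13.

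Within CIE mice Grm3 rose over withdrawal. Its mean was 12.39 ± 0.07 (SD, n = 5) at 72 h and 12.35 ± 0.07 (SD, n = 6) at 7 d, against 11.98 ± 0.20 at 0 h. All 5 arrays of CIE mice at 72 h lay above all 6 arrays at 0 h, with a lowest value of 12.31. The changes against CIE 0 h were 0.41 at 72 h (SE 0.0715, 1.33-fold) and 0.37 at 7 d (SE 0.0682, 1.29-fold), with limma adjusted p values of 0.000304 and 0.000655. In Ctrl mice the same changes of Grm3 were 0.13 and 0.05 (adjusted p = 0.916 and 0.940). The difference between the CIE minus Ctrl contrast at 7 d and that at 0 h was 0.32 (SE 0.0964, limma adjusted p = 0.125), and that between 72 h and 0 h was 0.27 (adjusted p = 0.365). A CIE minus Ctrl contrast of Grm3 that differs between times was therefore not shown.

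The call of Grm3 at 0 h rested on a few arrays and on the fit. Some arrays share exactly equal values, which joins them into 6 sets. Within the 5 sets that held both treatments at 0 h, the difference of Grm3 between the CIE and the Ctrl array was negative in all 5, from -0.54 to -0.03, and at 8 h it was negative in all 5, from -0.49 to -0.04. Fitting the sets as a block, the change was -0.31 (limma adjusted p = 0.0241), and without CIE 0 h replicates 5, 67 or 72 or Ctrl 0 h replicate 30 the adjusted p was 0.0162, 0.0142, 0.0133 or 0.0120.

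Grin2c followed time in CIE mice. Its log2 values in CIE mice were 8.06, 8.18, 8.26, 8.38, 8.14 and 8.59 at 0 h and 8.48, 8.35, 8.20, 8.23 and 8.18 at 8 h. They were 8.65, 8.76, 8.69, 8.65 and 8.58 at 72 h and 8.58, 8.73, 8.87, 8.42, 8.54 and 8.71 at 7 d. CIE 0 h replicate 72, at 8.59, was the only array of that group within the range of the 72 h group. Against CIE 0 h, Grin2c was higher by 0.40 at 72 h (SE 0.0861, 1.32-fold, limma adjusted p = 0.00393) and by 0.37 at 7 d (SE 0.0821, 1.29-fold, adjusted p = 0.00473). In a fit that blocked on the sets these differences were 0.40 and 0.37 (adjusted p = 0.0121 and 0.0145), and leaving out single arrays ended the call in 5 of 11 fits at 72 h and 7 of 12 at 7 d. The arrays whose removal ended it were CIE 0 h replicates 5 and 67 at both times, CIE 72 h replicates 3, 29 and 33 at 72 h, and CIE 0 h replicates 17 and 26 and CIE 7 d replicates 13, 27 and 65 at 7 d. Adjusted p values without 1 array reached 0.0196 at 72 h and 0.0238 at 7 d.

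In Ctrl mice the differences of Grin2c from 0 h had the same sign and did not pass the threshold. The mean of Grin2c in Ctrl mice was 8.63 ± 0.17 at 72 h and 8.68 ± 0.14 at 7 d, against 8.37 ± 0.15 at 0 h (SD, n = 6 each). These changes of 0.26 and 0.31 had limma adjusted p values of 0.472 and 0.171. The CIE minus Ctrl contrast of Grin2c at 72 h and at 7 d differed from that at 0 h by 0.13 (95% interval -0.11 to 0.38) and 0.06 (-0.17 to 0.30), so that the time course was not shown to differ between treatments. At 8 h Grin2c was at 8.29 ± 0.13 in CIE and 8.56 ± 0.05 in Ctrl mice (SD, n = 5 each), with 4 of 5 CIE arrays below every Ctrl array and differences within sets of -0.39 to -0.13. This change of -0.27 (SE 0.0900) had the smallest p of the 34 members at 8 h and an adjusted p of 0.278 in limma.

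**Figure D1:**
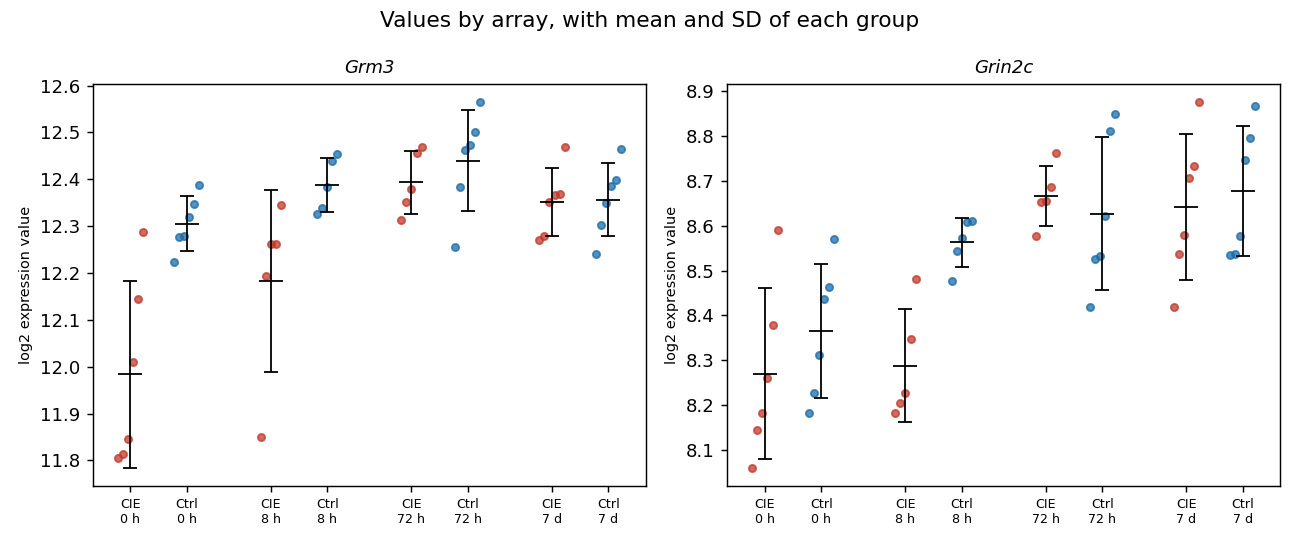
Log2 expression values of Grm3 and Grin2c in each array (points) with the mean and SD of each of the 8 groups, CIE in red left of Ctrl in blue at each time. Grm3 is low in CIE mice at 0 h, where 5 of 6 arrays lie below every Ctrl array, and Grin2c is higher at 72 h and 7 d than at 0 h in CIE mice.

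Across all 34 members, Grm3 at 0 h was the only difference between CIE and Ctrl mice that was called. None was called at 8 h, 72 h or 7 d, where 0.0622%, 0% and 0% of all probesets passed. An unadjusted p under 0.05 was reached by 5 members at 0 h (2 higher and 3 lower, against 16.5% of all probesets), 3 at 8 h (1 higher and 2 lower, 7.42%), 2 at 72 h (both higher, 7.2%) and 0 at 7 d (2.34%). In order of time, the median change of the members was 0.05, 0.05, 0.06 and -0.02, beside 0.02, 0.00, 0.03 and -0.00 over all genes. At 0 h 21 of 34 members were above 0, and at 8 h, 72 h and 7 d 24, 27 and 15 were. For 0 of 34 members at each time did the CIE and the Ctrl arrays separate without overlap, where 1.35%, 1.93%, 0.915% and 0.151% of all probesets did at 0 h, 8 h, 72 h and 7 d. Among pairs of arrays from 1 of the 6 sets, the sign was the same in all 5 pairs for Gria1 and Gria2 (higher) and Gria4, Grid1 and Grm3 (lower) at 0 h, for Grm3 and Grin2c (lower) at 8 h, and for Grin3a, Grip1, Grm2 and Homer2 (higher) at 72 h, given as a description. At 7 d no member had the same sign in all 6 pairs. Pairs were taken for members only, so no share over all probesets stands beside these. The 95% intervals of 26, 29, 28 and 30 of the 34 members at 0 h, 8 h, 72 h and 7 d lay within -0.5 to 0.5, a 1.41-fold change either way. The highest bound, 1.04, was that of Homer2 at 0 h, and the lowest, -0.73, that of Cacng3 at 0 h. For members with such wide intervals, small differences were not shown.

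Over time, the F test called Grm3 and Grin2c in CIE mice (limma adjusted p = 0.000274 and 0.000613), 2 of 34 members where 2.27% of all probesets passed, and no member in Ctrl mice (0.233%). Against CIE 0 h, 0 members passed at 8 h (0.633% of all probesets) and 2 members each passed at 72 h (1.62%) and 7 d (1.5%), all higher. In no member did the difference of a later CIE minus Ctrl contrast from that at 0 h pass the threshold. Of all probesets, 0.224% passed for at least 1 later time. At an unadjusted p under 0.05, limma gave 0, 2 and 2 members for these differences at 8 h, 72 h and 7 d, where 5.51%, 7.64% and 9.89% of all probesets passed. The changes of Ctrl mice from 0 h gave 2, 3 and 1 members at these times (5.03%, 5.54% and 5.91% of all probesets).

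**Figure D2:**
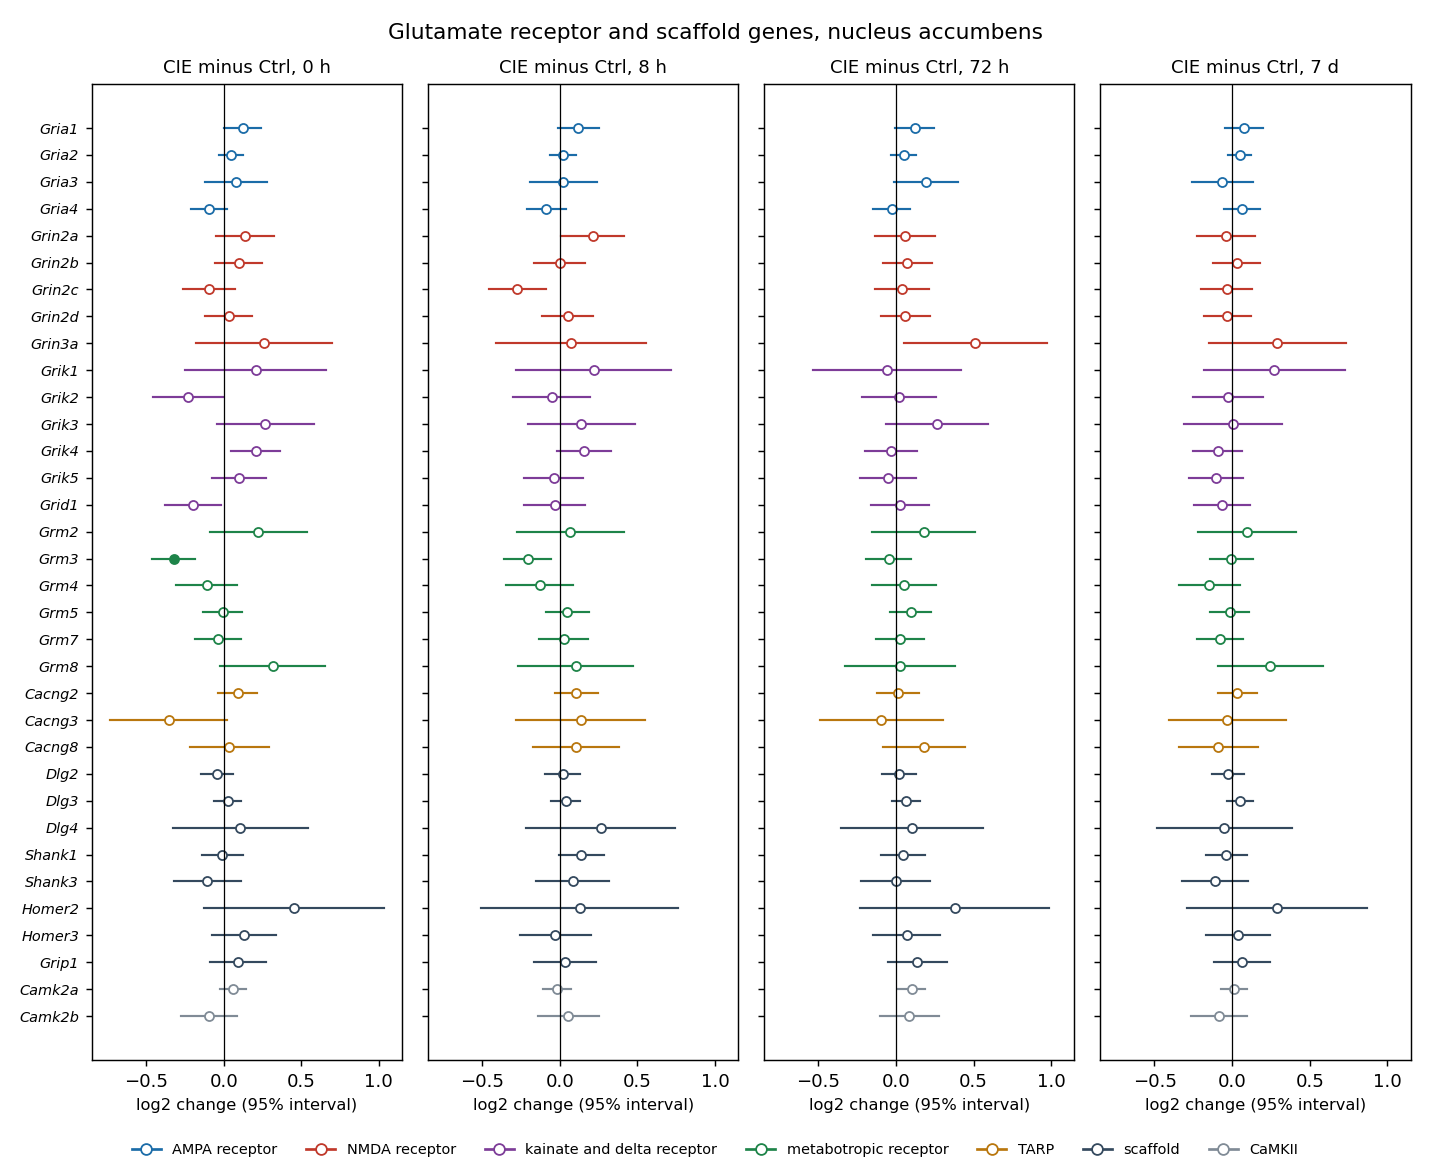
Log2 change between CIE and Ctrl mice (points) with its 95% interval (lines) for the 34 measured genes at 0 h, 8 h, 72 h and 7 d, coloured by family. The filled point, Grm3 at 0 h, is the only one past an adjusted p of 0.01.

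Among AMPA receptor genes, none of the 4 passed in any contrast. Gria1, which encodes GluA1, had values of 12.26, 11.96, 12.15, 12.11, 12.17 and 12.04 in CIE mice at 0 h, against 12.02, 11.91, 11.86, 12.14, 11.99 and 12.05 in Ctrl mice. The groups overlapped, with 3 CIE arrays above every Ctrl array. Its change was 0.12 (SE 0.0598, limma adjusted p = 0.296), and at 8 h, 72 h and 7 d it was 0.12, 0.12 and 0.08. Gria3 (GluA3) had 11.76, 11.83, 12.01, 11.79 and 11.61 in CIE mice at 72 h, against 11.50, 11.62 and 11.70 in Ctrl mice (lowest, median and highest), a change of 0.19 (adjusted p = 0.703). Gria4 (GluA4) had a lowest, median and highest of 10.20, 10.30 and 10.33 in CIE mice at 0 h, against 10.31, 10.37 and 10.50 in Ctrl mice, a change of -0.10 (adjusted p = 0.418). The difference of Gria4 between 7 d and 0 h within CIE mice was 0.22 (SE 0.0565, adjusted p = 0.0186). Gria2, whose edited GluA2 subunit keeps calcium out of the channel, had the narrowest spread, with group means between 12.86 and 12.93 and changes of 0.02 to 0.05 at the 4 times.

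Of the NMDA receptor genes, 5 of 6 were measured. Grin3a, which encodes GluN3A, a subunit that lowers calcium entry, had values of 7.94, 8.37, 8.00, 8.45 and 7.77 in CIE mice at 72 h, against 7.42, 7.53 and 8.06 in Ctrl mice (lowest, median and highest). Of the 5 CIE arrays, 2 lay above every Ctrl array, and within the 5 sets with both treatments the CIE array was higher by 0.35 to 0.93. The change of 0.51 (95% interval 0.05 to 0.97) was the highest of all members at this time and had an adjusted p of 0.679 in limma. Group means of Grin3a ran from 7.59, in Ctrl mice at 72 h, to 8.32. The mean of cortical pyramidal neuron markers, described below, was 0.09 in CIE and -0.44 in Ctrl mice at 72 h. In Ctrl mice it was -0.06 at 0 h, -0.07 at 8 h and 0.04 at 7 d. Grin3a had a Pearson r of 0.756 with that mean over arrays, after group means were taken away. The part of the marker difference in this change was not tested beyond the covariates given below. Grin2a (GluN2A), a dim probeset, had 4.59, 4.71, 4.31, 4.60 and 4.57 in CIE mice at 8 h, against 4.18, 4.34, 4.39, 4.48 and 4.34 in Ctrl mice, a change of 0.21 (adjusted p = 0.642). Grin2b (GluN2B) and Grin2d (GluN2D) changed by at most 0.10 at any time, and the 95% interval of Grin2b at 0 h was -0.06 to 0.25.

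At 0 h, 5 of the 34 members had an unadjusted p under 0.05, where 16.5% of all probesets did. Of these 5, 3 were kainate and delta receptor genes, 1 higher and 2 lower. Grik4, which encodes the high-affinity subunit GluK4, had a lowest, median and highest of 7.24, 7.48 and 7.80 in CIE mice at 0 h, against 7.20, 7.26 and 7.48 in Ctrl mice. Its change was 0.21 (SE 0.0782, limma adjusted p = 0.143), with 3 CIE arrays above every Ctrl array. Grid1, the glutamate delta 1 receptor, which binds presynaptic neurexin through cerebellin, had 9.43, 9.66 and 9.88 in CIE mice, against 9.72, 9.82 and 10.06 in Ctrl mice. It changed by -0.20 (adjusted p = 0.233), with 4 CIE arrays below every Ctrl array. Grik2 (GluK2) changed by -0.23 (adjusted p = 0.284), and all its CIE arrays lay within the Ctrl range. Grik1, Grik3 and Grik5 changed by 0.21, 0.27 and 0.10 at 0 h, none past the threshold. At 7 d the family ranged over -0.10 to 0.27.

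Of the 6 metabotropic receptor genes, 5 did not pass in any contrast. Grm8 (mGluR8), a presynaptic receptor, had a lowest, median and highest of 5.75, 6.27 and 6.93 in CIE mice at 0 h, against 5.55, 6.01 and 6.37 in Ctrl mice, a change of 0.32 with an interval of -0.02 to 0.65. Grm4 (mGluR4) had 7.87, 8.14 and 8.27 in CIE mice at 7 d, against 8.08, 8.19 and 8.52 in Ctrl mice, a change of -0.15 (limma adjusted p = 1.00). Grm2, the other group II receptor, changed by 0.22 at 0 h (adjusted p = 0.514), opposite in sign to Grm3. The difference between the changes of Grm2 and Grm3 was not tested. Grm5 (mGluR5), the group I receptor of medium spiny neurons, stayed between group means of 12.31 and 12.41, with changes of -0.01, 0.05, 0.10 and -0.01 at 0 h, 8 h, 72 h and 7 d. Grm7 (mGluR7) changed by at most 0.08 either way.

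The TARPs carry AMPA receptors to the membrane and set their kinetics. Cacng3 had a lowest, median and highest of 8.15, 8.61 and 9.19 in CIE mice at 0 h, against 8.74, 9.05 and 9.30 in Ctrl mice, and 4 of 6 CIE arrays lay below every Ctrl array. The change was -0.35 (SE 0.187, limma adjusted p = 0.346). Cacng2 (stargazin) had 9.83, 9.68, 9.63, 9.56 and 9.53 in CIE mice at 8 h, against 9.46, 9.66, 9.57, 9.46 and 9.56 in Ctrl mice, a change of 0.11 (adjusted p = 0.818). Cacng8 had 7.28, 7.38, 7.46, 7.44 and 7.18 in CIE mice at 72 h, against 6.80, 7.12 and 7.50 in Ctrl mice (lowest, median and highest), a change of 0.18 (adjusted p = 0.785). All CIE arrays of Cacng8 lay inside the Ctrl range.

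Among the scaffold genes, none of the 8 measured passed in any contrast. Homer2, which links group I metabotropic receptors to intracellular calcium stores, had values of 10.36, 8.89, 9.07, 8.72, 10.26 and 10.63 in CIE mice at 0 h, against 9.30, 8.61, 9.46, 9.80, 9.08 and 8.95 in Ctrl mice. The CIE arrays fell into 3 above and 3 within the Ctrl range. Its change of 0.45 (SE 0.288, limma adjusted p = 0.459) was the highest of all members at 0 h. Dlg3 (SAP102), which binds NMDA receptors, had 10.79, 10.84, 10.78, 10.77 and 10.66 in CIE mice at 72 h, against 10.63, 10.71 and 10.74 in Ctrl mice (lowest, median and highest). Its change was 0.07 (SE 0.0443, adjusted p = 0.763), with 4 of 5 CIE arrays above every Ctrl array. Shank1, a dim probeset, had 5.29, 5.01, 5.19, 5.09 and 5.00 in CIE mice at 8 h, against 4.97, 5.06, 4.87, 5.06 and 4.93 in Ctrl mice, a change of 0.14 (adjusted p = 0.696). Dlg4 (PSD-95) varied among arrays of 1 group, from 9.23 to 10.89 in CIE mice at 7 d and from 9.41 to 11.16 in Ctrl mice. Dlg2, Shank3, Homer3 and Grip1 changed by -0.11 to 0.14 at the 4 times.

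Neither CaMKII subunit passed in any contrast. Camk2a had 13.36, 13.51, 13.34, 13.40 and 13.23 in CIE mice at 72 h, against 13.18, 13.26 and 13.39 in Ctrl mice (lowest, median and highest), a change of 0.10 (SE 0.0431, adjusted p = 0.673). Camk2b had a lowest, median and highest of 11.83, 11.91 and 12.32 in CIE mice at 0 h, against 11.97, 12.08 and 12.23 in Ctrl mice, a change of -0.09 (adjusted p = 0.674). Later changes of Camk2b were 0.06 at 8 h, 0.09 at 72 h and -0.08 at 7 d.

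**Figure D3:**
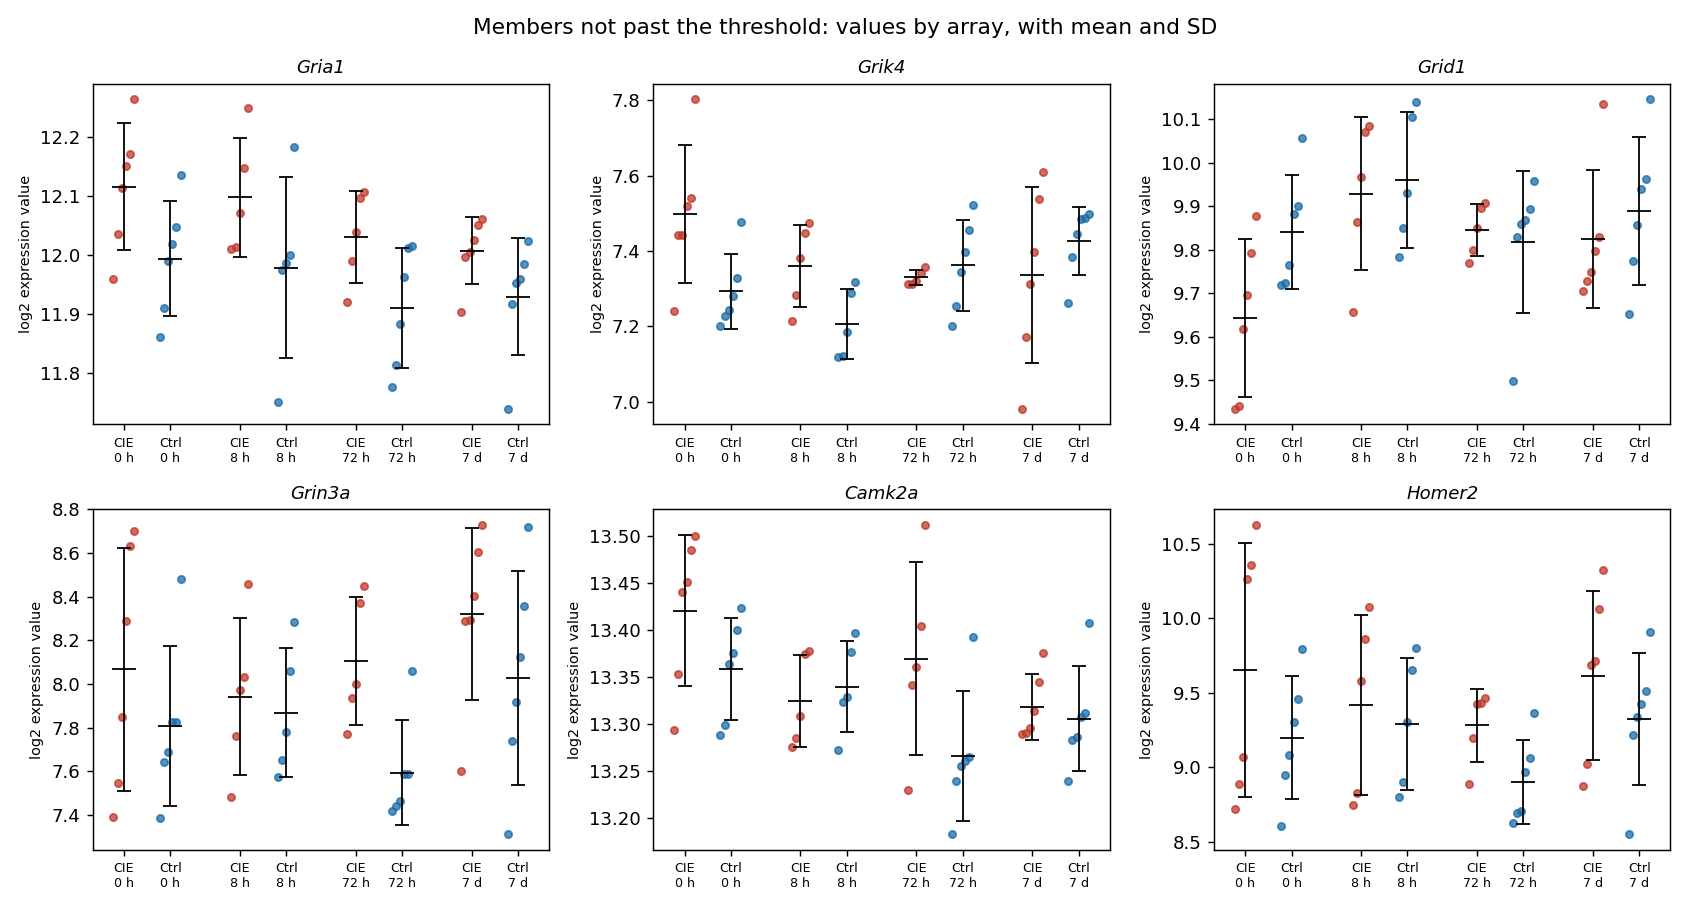
Log2 expression values by array (points) with group means and SDs for 6 members that did not pass the threshold in any contrast, CIE in red left of Ctrl in blue. The groups overlap at every time, and of these 6 genes Homer2 and Grin3a vary most within a group.

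Of the 34 further probesets of members, 0 passed in any contrast. At 0 h 10 of them had the opposite sign to the brightest probeset of their gene, in Gria3, Gria4, Grin2b, Grid1, Cacng2, Dlg4, Grip1 and Camk2a. The second probeset of Grid1 changed by 0.11, beside -0.20 at the first, and that of Gria4 by 0.10, beside -0.10. The second probeset of Homer2 changed by 0.54 at 0 h and 0.52 at 72 h, beside 0.45 and 0.38. Grm3 and Grin2c each had 1 probeset, so that neither call could be read on a further one.

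Of 56 other genes of glutamate signalling, 51 were measured. Directly after exposure, 1 of 12 genes of glutamate transport and metabolism, 1 of 11 receptor auxiliary subunits and 0 of 28 other postsynaptic density genes were called. Both called genes were lower, and 1.59% of all probesets were called at this time. Glud1, the glutamate dehydrogenase of mitochondria, was at 12.09 ± 0.09 in CIE and 12.26 ± 0.07 in Ctrl mice at 0 h (SD, n = 6 each), a change of -0.17 (SE 0.0374, limma adjusted p = 0.00482). Within CIE mice Glud1 was higher by 0.18 at 72 h and by 0.22 at 7 d than at 0 h (adjusted p = 0.00418 and 0.000164). In Ctrl mice 0 of the 12 transport and metabolism genes were called at these times against 0 h (lowest limma adjusted p = 0.375 and 0.0599). Their changes in Ctrl mice reached 0.19 and 0.20. For 0 of the 12 did the CIE minus Ctrl contrast at 72 h or 7 d differ from that at 0 h past the threshold (lowest limma adjusted p = 0.421 and 0.0459). A time course of Glud1 that differs between treatments was therefore not shown. Cacng4, a further TARP, had a lowest, median and highest of 10.03, 10.33 and 10.84 in CIE mice at 0 h, against 10.58, 10.84 and 11.09 in Ctrl mice, a change of -0.47 (SE 0.105, adjusted p = 0.00575). At further probesets of these genes, Slc1a3, the astrocytic glutamate transporter GLAST, was higher by 0.29 at 72 h and 0.34 at 7 d than at 0 h in CIE mice (second probeset, adjusted p = 0.00364 and 0.000434). The third probeset of Homer1 was higher by 0.98 at 8 h than at 0 h in CIE mice (SE 0.148, adjusted p = 9.55e-05), and the third probeset of Kalrn, a guanine nucleotide exchange factor of spines, was higher by 0.39 in CIE than in Ctrl mice at 0 h (adjusted p = 0.00427). At their brightest probesets, 0 of 28 other postsynaptic density genes were called in these 2 contrasts (lowest limma adjusted p = 0.0784 and 0.0917). Of the 12 transport and metabolism genes, only Glud1 was called at its brightest probeset at 72 h and 7 d against CIE 0 h. The changes of Slc1a3, Homer1 and Kalrn are therefore those of single further probesets. Those of Slc1a3 and Homer1 over time are given for CIE mice only, without the changes in Ctrl mice. Of all probesets, 1.62%, 1.5% and 0.633% were called in CIE mice at 72 h, 7 d and 8 h against 0 h. The further probesets searched were not counted, so no share of them stands beside these calls.

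Many members varied between arrays of the same group together with markers of particular neurons. The mean of 13 of 15 listed cortical pyramidal neuron markers, each centred over all arrays, ranged from -0.71 to 1.04 among CIE arrays at 0 h, against -0.78 to 0.47 among Ctrl arrays. The mean of 21 of 23 listed medium spiny neuron markers ranged from -0.52 to 0.26 in CIE mice, against -0.12 to 0.21 in Ctrl mice. In CIE minus Ctrl at 0 h, 20 of 21 medium spiny markers were below 0 (median change -0.19). Of these, 9 had an unadjusted p under 0.05 in limma, where 16.5% of all probesets did. Cortical markers were above 0 in 10 of 13 at 0 h (0.38) and 13 of 13 at 72 h (0.28). At these times 0 markers of either list were called, beside 1.59% and 0% of all probesets. From Ctrl 0 h to Ctrl 72 h, 11 of 13 cortical markers fell (median change -0.22), with 0 called (0.0488% of all probesets). After the mean of each group was taken away, both marker means had a Pearson r of -0.77 with each other over the 45 arrays. Of the 34 members, 11 were positively and 10 negatively related to the cortical mean, and 11 positively and 9 negatively to the medium spiny mean, in permutation tests within groups adjusted over all 68 relations at 0.05. An r of at least 0.5 in size was found for 38.2% of members and 13.1% of other genes with the cortical mean, and for 50% of members and 15.1% of other genes with the medium spiny mean.

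Homer2 followed the cortical mean most closely (Pearson r = 0.936, Spearman rho = 0.952, two-sided permutation p = 1e-05 for both, the smallest that 100000 resamples can give, adjusted p = 5.2e-05 and 4.2e-05). Its r was 0.934 without the 2 arrays farthest from the median of the marker mean and 0.911 to 0.977 within the 6 sets. Grm2 had r = 0.841 and rho = 0.893 (permutation p = 1e-05 for both, adjusted p = 5.2e-05 and 4.2e-05, r = 0.849 without the 2 arrays). Grik3, Grin3a, Gria3 and Grm8 had r of 0.802, 0.756, 0.717 and 0.704 with the cortical mean. Grm7 had the lowest r with the cortical mean (r = -0.685, rho = -0.683, permutation p = 2e-05 and 1e-05, adjusted p = 9.1e-05 and 4.2e-05, r = -0.607 without the 2 arrays). With the medium spiny mean, Shank3, Grm5, Camk2b, Dlg2 and Grm7 had r of 0.778, 0.770, 0.767, 0.757 and 0.727. Gria1 and Gria2 had r of 0.158 and 0.048 with the cortical mean and 0.124 and 0.075 with the medium spiny mean. Homer2 and Grm2 were thus high where cortical markers were high and medium spiny markers low, and Grm5 and Grm7 the reverse.

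**Figure D4:**
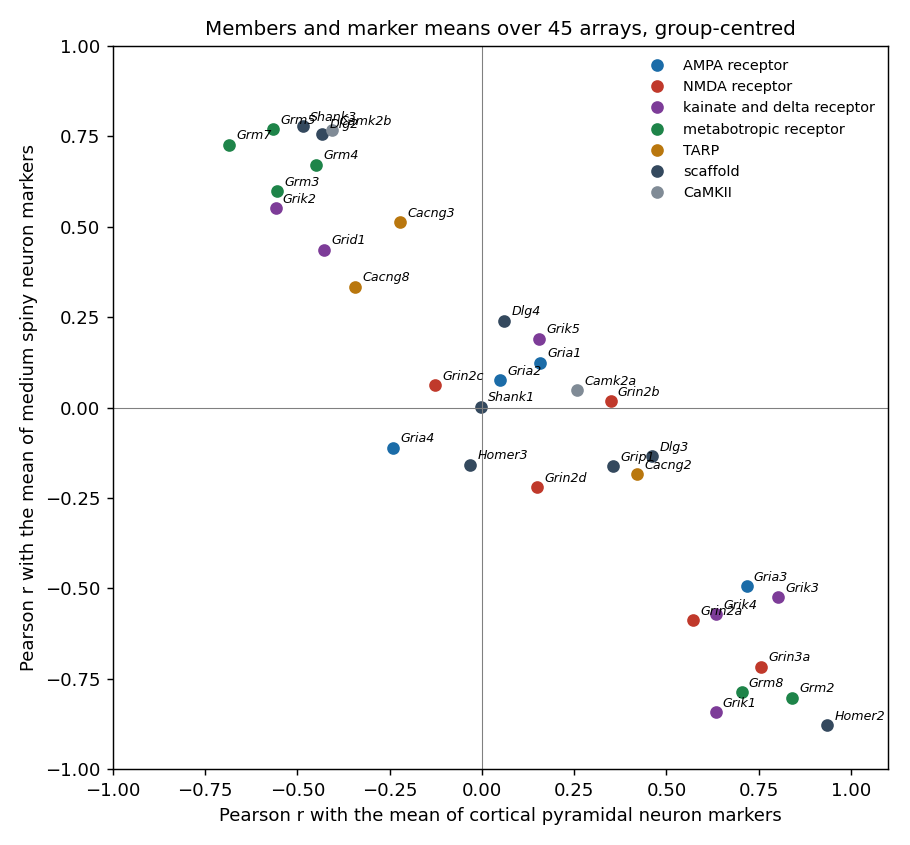
Pearson r of each of the 34 members with the mean of cortical pyramidal neuron markers (x axis) and of medium spiny neuron markers (y axis), over 45 arrays after the group means were taken away, coloured by family. Homer2, at 0.936 and -0.879, and Grm7, at -0.685 and 0.727, lie at opposite ends.

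Grm3 was among the members that moved with these markers. Its r was -0.555 with the cortical mean (rho = -0.625, permutation p = 0.00034 and 5e-05, adjusted p = 0.00092 and 0.00017, r = -0.557 without the 2 arrays farthest from the median) and was negative in all 6 sets. With the medium spiny mean Grm3 had r = 0.598 (rho = 0.539, permutation p = 0.00097 and 0.0012, adjusted p = 0.0024 and 0.0029, r = 0.532 without the 2 arrays). In CIE mice at 0 h, replicates 5, 67 and 72 had the lowest Grm3 values, 11.85, 11.81 and 11.81. The same arrays had the highest cortical means, 0.84, 0.66 and 1.04, and the highest Homer2 values. With both marker means as covariates the change of Grm3 at 0 h was -0.24 (limma adjusted p = 0.0121) and that of Homer2 was -0.02 (SE 0.0797). The rise of Grm3 in CIE mice, at 0.34 to 72 h and 0.35 to 7 d, stayed past the threshold with these covariates (adjusted p = 0.000667 and 7.41e-05). Grin2c had r = -0.128 with the cortical and 0.062 with the medium spiny mean, and its changes against CIE 0 h with the covariates were 0.40 and 0.37. Whether tissue make-up had a part in these changes was not tested beyond these covariates.

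Markers of other cells also moved with the contrasts in which Grm3 passed. At 0 h, microglia markers were below 0 in 11 of 12 measured genes (median change -0.19, 2 called lower) and endothelial and pericyte markers in 9 of 11 (-0.14, 1 called lower). Oligodendrocyte markers were below 0 in 11 of 13 (-0.11, 0 called) and astrocyte markers in 8 of 12 (-0.05, 1 called higher). Of all probesets 1.59% were called in this contrast. The centred mean of the microglia markers ranged from -0.47 to -0.08 in CIE mice at 0 h, against -0.20 to 0.37 in Ctrl mice, and that of the endothelial and pericyte markers from -0.37 to -0.06, against -0.07 to 0.03. From CIE 0 h to 72 h, 12 of 13 oligodendrocyte, 11 of 12 microglia and 10 of 11 endothelial and pericyte markers rose. Of these lists 0, 2 and 4 markers were called higher, where 1.62% of all probesets were called. The markers also rose from Ctrl 0 h to Ctrl 72 h, in 13 of 13, 10 of 12 and 11 of 11, with 0 called (0.0488% of all probesets). The median change of oligodendrocyte markers was 0.30 in CIE and 0.43 in Ctrl mice. The mean of the oligodendrocyte markers ranged from -0.13 to 0.53 in CIE mice at 72 h, against -0.71 to 0.22 at 0 h. Of 12 astrocyte markers, 7 rose from CIE 0 h to 72 h, with 2 called higher and 1 lower. From CIE 0 h to 7 d, 12 of 13 oligodendrocyte and 10 of 12 microglia markers rose. So did 9 of 11 endothelial and pericyte and 7 of 12 astrocyte markers. In this order 0, 2, 4 and 1 were called higher, and 1 astrocyte marker lower, where 1.5% of all probesets were called. From Ctrl 0 h to 7 d, 12, 3, 7 and 4 markers of these lists rose, with 1 astrocyte marker called lower (0.0799%). The part of these markers in the changes of Grm3 and Grin2c was not tested beyond the astrocyte covariate given below.

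**Figure D5:**
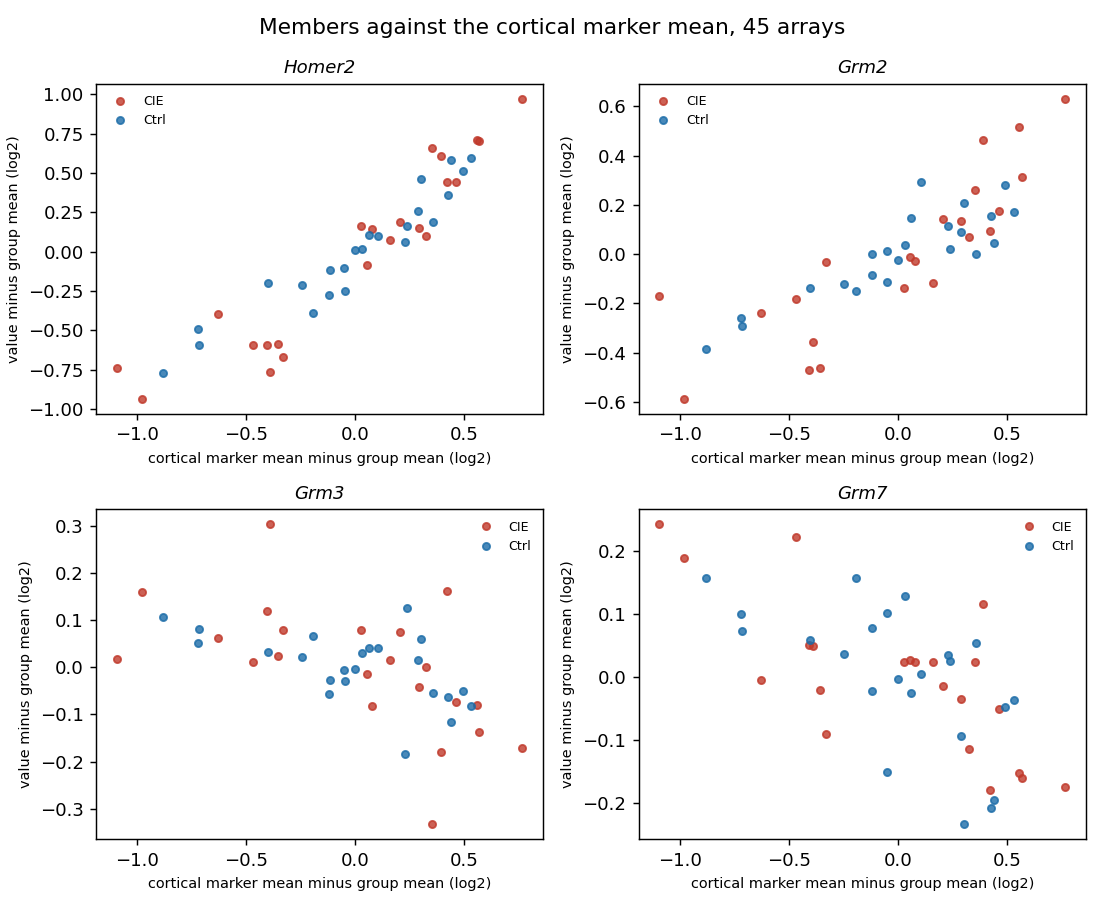
Values of Homer2, Grm2, Grm3 and Grm7 in each array (y axis, log2, minus the mean of the group) against the mean of cortical pyramidal neuron markers (x axis, log2, minus the mean of the group), CIE in red and Ctrl in blue. Homer2 (r = 0.936) and Grm2 (0.841) rise with the marker mean, and Grm3 (-0.555) and Grm7 (-0.685) decline with it.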

How the data were processed

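RNA from the NAC was hybridized to Affymetrix whole-genome mouse arrays. The values deposited by the authors are log2 expression values per probeset, made with RMA. According to the methods, background correction and a first quantile normalization were done batch by batch, all arrays were quantile normalized together and ComBat was applied to the batches. These steps shape the spread between arrays, and residual degrees of freedom were not reduced for them. No source used here gives the version of RMA.

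Genes were named from the platform annotation, using probesets with a single symbol, and positions came from RefSeq (GRCm38.p6). A model of 8 group means was fitted to all 45037 probesets of 45 arrays with limma 3.58.1 in R 4.3.3. P values were adjusted by Benjamini-Hochberg over all probesets within each contrast, at 0.01. The labels give no batch. Arrays with at least 5 exactly equal values (tolerance 2e-08) were joined into 6 sets of 6 to 8 arrays, with Ctrl 0 h replicate 20 in none, and each set held at most 1 array of a group. These sets are inferred and may not be the hybridization batches. In the fit with sets as a block, that array stands alone and does not bear on the contrasts.

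Members and gene lists were chosen with earlier results of these data known. All members are accounted for, with values by array or as lowest, median and highest for called members and, in each family, for up to 3 members with the smallest p over the CIE minus Ctrl contrasts. Of other glutamate genes, called ones are named. The fit was checked on simulated data with known changes. Motifs were searched as exact letters. Alternatives covered normalization, array weights, empirical Bayes settings, the block, the choice of probeset, a filter at a mean of 6, the threshold, marker covariates, the arrays fitted and leaving out each array. The astrocyte marker covariate was added after seeing the data.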

Additional observations from a re-analysis of the deposited data

Results flagged for a closer look

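Single arrays that stood apart from the rest of their group were looked for in the 34 members and 8 groups. The gap of an end array to its nearest neighbour, as a share of the range of the group, passed Dixon's critical value (0.71 for 5 arrays, 0.625 for 6) in 13 of 272 groups, or 4.78%, where chance gives about 1 in 20. In CIE mice at 7 d, replicate 13 was lowest for Dlg4 (9.23, next 10.66, gap share 0.859) and Grik5 (0.686) and highest for Grid1 (0.713), and replicate 65 was highest for Shank1 (0.655). In Ctrl mice at 7 d, replicate 62 was lowest for Cacng3 (0.706) and replicate 77 for Grm8 (0.723). In Ctrl mice at 72 h, replicate 52 was lowest for Grm7 (0.831) and Grid1 (0.722), and replicate 44 was highest for Grin3a (0.734). In Ctrl mice at 8 h, replicate 79 was lowest for Dlg2 (0.747) and Grik2 (0.725) and replicate 42 for Homer3 (0.834). In Ctrl mice at 0 h, replicate 48 was lowest for Grm4 (0.639). None of these concerns Grm3 or Grin2c, and no array of CIE mice at 0 h, 8 h or 72 h was among them.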

How the results depend on the processing

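The counts of members called in CIE minus Ctrl at 8 h, 72 h and 7 d, over time in Ctrl mice and for later contrasts against 0 h were 0 under all alternatives run. At 0 h the count of 1 became 0 with array weights, the sets as a block, cortical and medium spiny covariates, the 4 times adjusted together and only the arrays of that time, where the change of Grm3 had adjusted p values of 0.0421, 0.0241, 0.0121, 0.0116 and 0.114. Leaving out each array gave 0 to 1 at 0 h, and the change of Grm3 ranged from -0.38 to -0.29, losing the call without Ctrl replicate 30 or CIE replicates 5, 67 or 72. Over time in CIE mice, the count of 2 became 1 (Grin2c) with only the arrays of that treatment and 3 (with Gria4) with the neuron covariates, the astrocyte covariate or a threshold of 0.05, and was 2 without any 1 array. The change of Grm3 from 0 h kept the call in 11 of 12 alternatives at 72 h and at 7 d, with adjusted p values up to 0.0112 and 0.0177, and without each array. That of Grin2c kept it in 10 of 12 alternatives at each time, and lost it in 5 of 11 fits without 1 array at 72 h (0.35 to 0.46, adjusted p up to 0.0196) and in 7 of 12 at 7 d (0.32 to 0.44, up to 0.0238). Among those arrays were CIE 0 h replicates 5 and 67. The cause of these losses was not tested. Using the second brightest probeset or the threshold of 0.05 could not end a call of Grm3 or Grin2c. Each of these genes has 1 probeset, and that threshold is looser than 0.01. Over all probesets the alternatives called 19 to 1772 at 0 h (717 as reported), 6 to 119 at 8 h (28), 0 to 20 at 72 h (0), 0 to 1 at 7 d (0), 593 to 2125 over time in CIE (1022) and 64 to 240 in Ctrl mice (105), and 24 to 365 for later contrasts (101). No change of Grm3 or Grin2c reversed. No paired analysis by replicate number was possible because no number is shared between groups, and the inferred sets were used as the block. Arrays with 5 or 6 mice a group and dim probesets, such as those of Grin2a and Shank1, limit what small changes can be seen.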

Other observations

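Over the 45 arrays, after the group means were taken away, the mean of 12 astrocyte markers had an r of -0.07 with Grm3 and 0.15 with Grin2c, given as a description. This mean joins genes that moved both ways. At 0 h 2 of the 12 were higher and 5 lower at an unadjusted p under 0.05 in limma. Changes ran from -0.26 to 0.56, and 16.5% of all probesets had such a p. Of the 12, 1 was called higher at 0 h, where 1.59% of all probesets were called. CIE 72 h minus CIE 0 h ran from -1.02 to 0.46, with 2 called higher and 1 lower (1.62% of all probesets). With that mean as a covariate, an alternative chosen after seeing the data, the change of Grm3 in CIE against Ctrl mice at 0 h was -0.32 (limma adjusted p = 0.00284), and Grin2c in CIE mice was higher by 0.40 at 72 h and 0.38 at 7 d than at 0 h (adjusted p = 0.00262 and 0.00297). Gria4 passed the F test over time in CIE mice with that covariate, and also with the cortical and medium spiny means, where it was higher by 0.22 at 7 d than at 0 h (adjusted p = 0.00443).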
